A study of Mus musculus with 15 samples.

Results

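Ace, Ear2, Spn, Nr4a1, Cd300e, Cd300ld, Emr4 and Klra2 are genes that textbooks and atlases of mouse blood cells place in Ly6C-low monocytes, the monocytes that crawl along the inside of vessels and are called patrolling. These 8 genes, of 38924 in the deposited tables, were taken by name. They were picked as genes of that kind that stood highest in CD45hi over CD45lo brain cells in these same libraries, so the CD45hi against CD45lo difference is described for them and not tested. RNA was sequenced from CD11b+ cells that had been sorted by their level of CD45 from brains of 12-month-old male C57BL/6J mice. Control diet (CD) mice stayed on chow, and western diet (WD) mice were switched to the WD as young adults and kept on it. The 15 libraries were 4 CD CD45hi, 3 WD CD45hi, 4 CD CD45lo and 4 WD CD45lo. No mouse carried a transgene or a deleted allele in these groups, brains had been perfused, and the olfactory bulb and cerebellum were removed before cells were dissociated. Live CD11b+ cells without the T cell marker CD3e were split by CD45 level, with no further marker in the sort described, so each CD45hi library is a mixture of cells.

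Ly6C-low monocytes arise from classical Ly6C-high monocytes in the marrow and blood, and the nuclear receptor Nr4a1 is required for them. They stay mostly inside vessels, where they patrol the endothelium and take up debris. CD11b+CD45lo cells of the brain are mainly microglia, while CD45hi cells include monocytes, neutrophils and border-associated macrophages, the resident macrophages of the meninges and perivascular spaces.

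Library totals ran from 11951412 to 17912272 expected counts. Levels are given as cpm, a gene's counts relative to all counts of its library, after TMM scaling, which sets the library size from the bulk of genes, and the 14967 genes tested reached 1 cpm in 2 or more libraries. Ptprc, which encodes CD45, was at 778 to 1290 cpm in the CD45hi libraries and at no more than 488 in the CD45lo libraries. The sum of 6 microglia markers was 10698 to 13705 cpm in CD45lo libraries and 5103 to 6237 cpm in CD45hi libraries, so the CD45hi label did not mean an absence of microglial RNA. CD CD45hi replicate 4 and WD CD45hi replicate 1 stood apart from the other CD45hi libraries on the second principal component (93.0 and -134.7, against 6.13 to 21.5), and results for CD45hi cells are also given without them. The T cell gene Cd3e was at 0 in 6 of the 7 CD45hi libraries. The 5 T cell markers summed to 11.1 to 83.6 cpm in CD and 0.470 to 45.7 cpm in WD CD45hi libraries. Most of that was Cd4, at 10.9 to 79.4 cpm on CD and 0.470 to 45.1 cpm on WD. The other T cell markers reached no more than 4.13 cpm, for Cd3g in CD replicate 3.

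The 8 genes were at 0.968 to 302 cpm in the CD45hi libraries and at 0 to 14.4 cpm in the CD45lo libraries. For each of the 8, the lowest CD45hi library was above the highest CD45lo library on both diets. Over all genes tested, 8.26% lay above in this way in CD mice and 10% in WD mice, and since the genes were chosen on this contrast nothing is read from their count. The mean CD45lo level was 0.469% to 5.53% of the mean CD45hi level in CD mice (median of the 8 genes 3.36%) and 0% to 4.12% in WD mice (median 1.60%). In bulk RNA, fewer cells of a type and less RNA per cell cannot be told apart, and this holds for each level below.

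**Figure D1:**
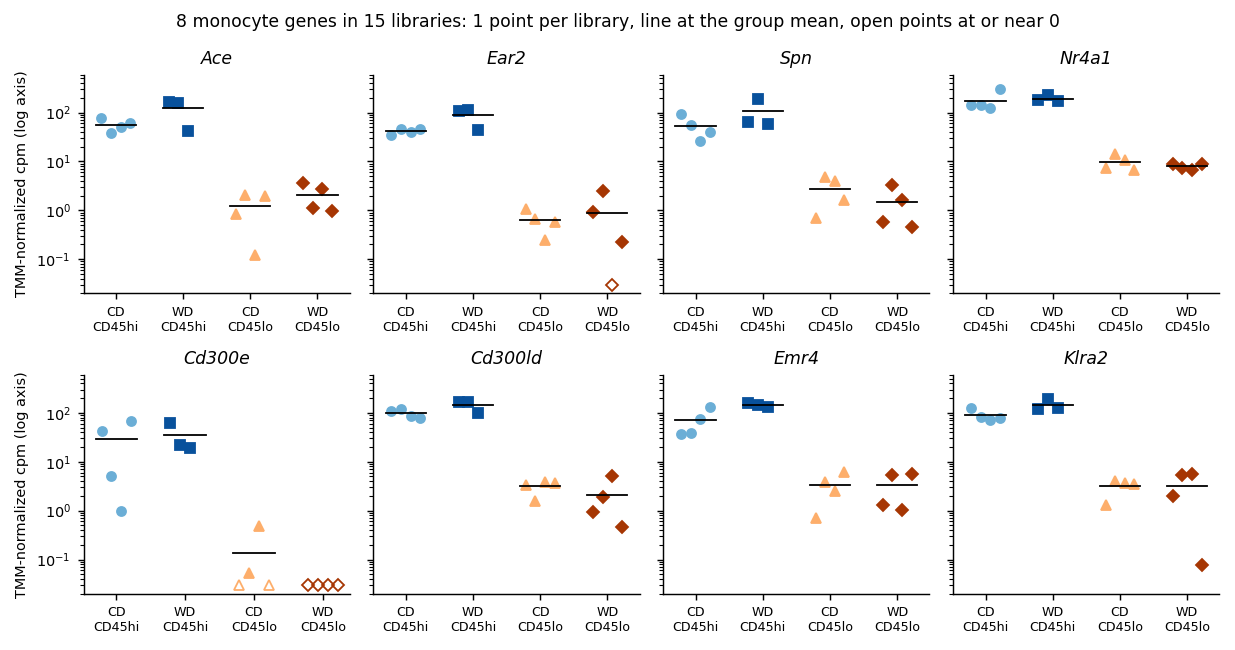
TMM-normalized cpm (log axis) of the 8 genes in each library, with diet and CD45 level on the horizontal axis, 1 point per library, a line at the group mean and open points for values at or near 0. In every panel the CD45hi points lie above the CD45lo points, from 0.968 to 302 cpm against 0 to 14.4 cpm, and the CD and WD points of CD45hi cells overlap except for Emr4.

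Nr4a1 encodes a nuclear receptor of the Nr4a family, which acts as a transcription factor and is induced quickly by many signals. The gene lies at chr15:101254269-101274795 on the plus strand (mm10, GENCODE M21, protein coding). CD CD45hi replicates 1 to 4 had 140.5, 140.0, 123 and 302 cpm, and WD CD45hi replicates 1 to 3 had 177, 227 and 174 cpm. The 3 WD libraries therefore lay inside the CD range, since CD replicate 4 was the highest of the 7. In CD45lo cells Nr4a1 was at 7.29, 14.4, 10.6 and 6.70 cpm on CD and at 8.85, 7.42, 6.75 and 8.71 cpm on WD. The diets overlapped there too, and 100 to 278 counts stood behind each CD45lo value. The log2 fold change of WD over CD in CD45hi cells was 0.13 (SE 0.31, 95% interval -0.54 to 0.79, adjusted p = 0.883, edgeR quasi-likelihood test), and without CD CD45hi replicate 4 it was 0.52 (SE 0.27, adjusted p = 0.314).

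The RefSeq promoter window of Nr4a1 is shown because Nr4a1 is also an immediate early gene, and its start site is preceded by repeats of TGCGTCA, letters like those bound by CREB and AP-1 family factors. The windows printed here hold the 250 bases before a RefSeq start (GRCm38.p6, which shares its coordinates with mm10), in lower case, with the motif on either strand in capitals. The letters were chosen with the promoters in view. In the window at chr15:101266596-101266845 on the plus strand, before a RefSeq start that lies inside the annotated gene, TGCGTCA occurred 4 times, while 1.75% of the 32851 RefSeq promoter windows of this length held it at least once and none of the other 7 genes did.

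Nr4a1: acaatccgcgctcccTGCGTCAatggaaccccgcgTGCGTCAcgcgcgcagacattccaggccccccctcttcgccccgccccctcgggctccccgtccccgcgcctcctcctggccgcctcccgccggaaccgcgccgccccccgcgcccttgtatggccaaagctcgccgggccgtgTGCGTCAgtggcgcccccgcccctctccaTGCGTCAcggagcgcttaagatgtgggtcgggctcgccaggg

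Both other Nr4a genes were uneven between the CD45hi libraries. Nr4a2 was at 87.1 cpm in WD CD45hi replicate 2 and at 0.564 to 4.98 cpm in the other CD45hi libraries. Nr4a3 was at 1.29 to 23.2 cpm on CD and 2.54 to 23.5 cpm on WD in CD45hi cells. In CD45hi over CD45lo cells edgeR called Nr4a3 higher in CD mice (log2 fold change 6.20, adjusted p = 0.013) and Nr4a2 higher in WD mice (5.87, adjusted p = 0.040), the latter resting on the library with 87.1 cpm. Neither was called for diet in CD45hi cells (adjusted p = 0.209 for Nr4a2 and 0.905 for Nr4a3, edgeR). The NBRE, AAAGGTCA, to which Nr4a1 protein binds, was in none of the 9 windows of the 8 genes (Ace has 2 starts) and in 1.34% of all windows.

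Of 18 other immediate early genes, which are induced within minutes by many signals, all 18 were tested. In CD45hi over CD45lo cells edgeR called 3 higher and 0 lower in CD mice and 3 higher and 0 lower in WD mice in its test against a 1.5-fold difference, and the median log2 fold change was 0.93 and 0.70. Over all genes tested, 3.39% were called higher in CD mice and 4.01% in WD mice. The 4 with the highest mean were Zfp36, Dusp1, Egr1 and Jun. Zfp36, which encodes an mRNA decay factor, rose by 1.15 on the log2 scale in CD mice (adjusted p = 0.018) and by 1.17 in WD mice (adjusted p = 0.018). Dusp1 (log2 fold change 0.80 and 0.76), Egr1 (0.74 and 0.69) and Jun (0.26 and 0.24) were not called. Fosl2 and Ier3, named with their values in view, were also called higher on both diets. The log2 fold change was 3.15 and 2.54 for Fosl2 (adjusted p = 1.6e-05 and 0.00024, edgeR). For Ier3 it was 1.90 and 1.69 (adjusted p = 0.0016 and 0.0071, edgeR). The value for Nr4a1 in the same contrast was 4.17 in CD mice and 4.60 in WD mice. Nr4a1 was chosen on this contrast, so no rank among these genes is read from it. Between the diets in CD45hi cells, edgeR called 0 of the 18, with 0 at an unadjusted p under 0.05.

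Spn encodes CD43, a heavily glycosylated mucin-like protein of the leukocyte surface, and lies at chr7:127132232-127137823 on the minus strand. It was at 94.3, 56.3, 26.5 and 40.4 cpm in CD CD45hi replicates 1 to 4. In WD CD45hi replicates 1 to 3 it was at 64.2, 194 and 57.7 cpm. Only WD replicate 2 was above the CD range, and the other 2 WD libraries lay within it. In CD45lo cells Spn was at 0.706, 4.72, 4.00 and 1.65 cpm on CD and at 0.590, 3.26, 1.59 and 0.455 cpm on WD, with overlap. The WD over CD log2 fold change in CD45hi cells was 0.95 (SE 0.66, 95% interval -0.45 to 2.35, adjusted p = 0.485, edgeR), and without WD CD45hi replicate 2 it was 0.17 (adjusted p = 0.928).

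Emr4 encodes an adhesion G protein-coupled receptor related to F4/80, is listed as Adgre4 in GENCODE M21 and lies at chr17:55749984-55853662 on the plus strand. The levels of CD CD45hi replicates 1 to 4 were 37.5, 39.5, 76.2 and 129 cpm, and those of WD CD45hi replicates 1 to 3 were 158, 142 and 134 cpm. Emr4 was the single gene of the 8 whose WD libraries all lay above its CD libraries, where 2.58% of all genes tested did. The margin was small, 134 against 129 cpm, and CD spread 3.45-fold from lowest to highest while WD spread 1.18-fold. In CD45lo cells it was at 0.706, 3.79, 2.52 and 6.07 cpm on CD and at 1.31, 5.42, 1.04 and 5.53 cpm on WD. The log2 fold change of 1.04 in CD45hi cells was not called (SE 0.61, 95% interval -0.26 to 2.33, adjusted p = 0.396, edgeR). Of the other family members tested, Cd97 was at 406 cpm in CD CD45hi and 513 cpm in WD CD45hi cells on average against 11.6 and 14.4 cpm in CD45lo cells, and edgeR called it higher on both diets (log2 fold change 5.13 and 5.15, adjusted p = 2e-05 and 2.3e-05). Emr1, which encodes F4/80 itself, had log2 fold changes of 0.06 and 0.52 and was not called.

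Klra2 encodes Ly49B, a C-type lectin-like receptor of the Ly49 family that is found on myeloid cells rather than NK cells, and lies at chr6:131219223-131247362 on the minus strand. CD CD45hi replicates 1 to 4 had 126, 82.0, 69.9 and 78.5 cpm, and WD CD45hi replicates 1 to 3 had 118, 196 and 125 cpm. The diets overlapped because CD replicate 1 was above WD replicates 1 and 3. In CD45lo cells Klra2 was at 1.29, 4.05, 3.75 and 3.57 cpm on CD and at 1.97, 5.42, 5.60 and 0.0758 cpm on WD, the last being 1 count. The WD over CD log2 fold change in CD45hi cells was 0.72 (SE 0.62, 95% interval -0.59 to 2.02, adjusted p = 0.587, edgeR).

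Of 13 other genes of the Ly49 family, 5 passed the filter on low values and 4 were at 0 in all 15 libraries. Klra9, which did not pass the filter and is named with its values in view, was at 60.0 cpm (783 counts) in WD CD45hi replicate 3 and at 0 to 0.537 cpm in the other CD45hi libraries. Among the 4 genes with the highest level of those that passed (Klra17, Klra13-ps, Klra4 and Klra8), the highest group mean was 7.58 cpm, for Klra17 in CD CD45hi cells. Klra17 was called higher in CD45hi than CD45lo cells in CD mice (adjusted p = 0.034, edgeR), and in WD mice its adjusted p was 0.18. Klra3, named with its values in view, was called higher in WD mice (log2 fold change 8.70, adjusted p = 0.0458, edgeR). It was at 0 to 0.248 cpm in CD and 0.403 to 6.58 cpm in WD CD45hi libraries. NK markers summed to 12.1 to 52.3 cpm in CD CD45hi and 27.4 to 140.3 cpm in WD CD45hi libraries, highest in WD replicate 3. In that library Gzma was at 64.0, Klrb1c at 56.3 and Nkg7 at 18.1 cpm, and Klra2 was at 125 cpm. In WD replicate 2, where Klra2 was highest at 196 cpm, Nkg7 was at 18.9, Gzma at 14.3 and Klrb1c at 0.134 cpm. The other 3 NK markers, Ncr1, Eomes and Prf1, were at 0 to 4.13 cpm in the CD45hi libraries, and the part of NK cells in the Klra2 level was not tested.

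Cd300e and Cd300ld encode paired immunoglobulin-like receptors of the CD300 family, and CD300e is an activating receptor of monocytes. They lie near each other on chromosome 11, Cd300ld at chr11:114982274-114989922 and Cd300e at chr11:115051917-115062177, both on the minus strand. Their promoter windows and that of Spn are shown because these 3 of the 8 genes held AGGAAGT, letters like those bound by PU.1 and other ETS factors, on either strand. AGGAAGT was in 7.69% of all windows, and the windows of Ace, Ear2, Emr4, Klra2 and Nr4a1 did not hold it. Its matches overlapped none of the other letters searched. TGANTCA, a form of the AP-1 site, was in 6.75% of all windows and in none of those of the 8 genes. The windows are at chr11:115062040-115062289, chr11:114989887-114990136 and chr7:127137824-127138073, all minus strand, with AGGAAGT or its reverse complement in capitals.
Cd300e: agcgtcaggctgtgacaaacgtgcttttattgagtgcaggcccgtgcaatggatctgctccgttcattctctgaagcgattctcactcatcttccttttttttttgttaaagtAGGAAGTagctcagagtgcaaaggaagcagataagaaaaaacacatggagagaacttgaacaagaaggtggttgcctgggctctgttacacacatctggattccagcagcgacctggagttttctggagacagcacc
Cd300ld: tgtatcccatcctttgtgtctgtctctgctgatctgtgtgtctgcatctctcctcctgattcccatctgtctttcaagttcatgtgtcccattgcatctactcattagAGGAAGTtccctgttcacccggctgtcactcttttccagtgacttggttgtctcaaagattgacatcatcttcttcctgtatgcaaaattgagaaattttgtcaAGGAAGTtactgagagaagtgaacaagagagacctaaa
Spn: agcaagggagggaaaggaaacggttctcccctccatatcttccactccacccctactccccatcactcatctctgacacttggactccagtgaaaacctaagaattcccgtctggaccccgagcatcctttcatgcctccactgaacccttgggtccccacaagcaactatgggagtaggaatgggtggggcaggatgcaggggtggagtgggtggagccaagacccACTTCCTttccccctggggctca

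Cd300e was the least even of the 8 genes. In CD CD45hi replicates 1 to 4 it was at 43.1, 5.13, 0.968 and 66.7 cpm, and in WD CD45hi replicates 1 to 3 at 62.2, 22.5 and 18.9 cpm. CD replicates 2 and 3 were therefore below every WD library, while CD replicate 4 was above all of them. In CD45lo cells it was at 0, 0.0519, 0.492 and 0 cpm on CD and at 0 in all 4 WD libraries. With the WD CD45lo libraries taken at 3 counts each, Cd300e was at least 170-fold higher in WD CD45hi cells, which covers counting error only. The WD over CD log2 fold change in CD45hi cells was 0.25 (SE 1.13, 95% interval -2.17 to 2.68, adjusted p = 0.942, edgeR), and its sign turned without CD CD45hi replicate 2 (-0.10), without CD CD45hi replicate 3 (-0.15) or without WD CD45hi replicate 1 (-0.49).

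Cd300ld varied far less. Its CD CD45hi replicates 1 to 4 had 111, 119, 86.1 and 77.1 cpm, and WD CD45hi replicates 1 to 3 had 167, 164 and 98.5 cpm. Of the 3 WD libraries, 2 lay above the CD range and replicate 3 lay inside it. In CD45lo cells it was at 3.29, 1.56, 3.87 and 3.74 cpm on CD and at 0.918, 1.93, 5.22 and 0.455 cpm on WD. The WD over CD log2 fold change in CD45hi cells was 0.54 (SE 0.51, 95% interval -0.54 to 1.62, adjusted p = 0.628, edgeR). In the GENCODE M21 transcripts, 2.33% of its 75-base runs were also found in Cd300lf, and 9 of the 15 libraries gave it a fractional count.

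Among 6 other Cd300 genes, 5 passed the filter on low values. In CD45hi over CD45lo cells edgeR called 3 higher and 0 lower on either diet, Cd300lf (log2 fold change 4.80 in CD and 2.89 in WD mice), Cd300lh (4.44 and 4.11) and Cd300lb (4.53 and 4.12). Among all genes tested 3.39% were called higher in CD mice and 4.01% in WD mice. Cd300a, an inhibitory receptor, was at 169 cpm on average in both CD45 groups of CD mice. In CD45hi cells it was at 153 to 179 cpm on CD and 181 to 401 cpm on WD without overlap, with an unadjusted p of 0.00289 and an adjusted p of 0.114 (edgeR).

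Ace encodes angiotensin-converting enzyme, the peptidase that makes angiotensin II, and lies at chr11:105967945-105989964 on the plus strand. CD CD45hi replicates 1 to 4 had 79.2, 37.6, 49.7 and 60.5 cpm, and WD CD45hi replicates 1 to 3 had 163, 161 and 42.9 cpm. WD replicates 1 and 2 were above every CD library, and WD replicate 3 was inside the CD range. In CD45lo cells it was at 0.824, 2.02, 0.123 and 1.99 cpm on CD and at 3.54, 1.11, 2.69 and 0.985 cpm on WD. The WD over CD log2 fold change in CD45hi cells was 1.11 (SE 0.61, 95% interval -0.18 to 2.39, adjusted p = 0.361, edgeR), the largest of the 8.

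Ace is read from more than 1 start, and the annotation gives 4 transcripts. RSEM, which divides reads among transcripts, gave a mean transcript length of 3216 and 3350 bases in CD CD45hi replicates 1 and 2 and of 4505 to 4697 bases in the other 5 CD45hi libraries. Its level per length in those libraries therefore rests on another mix of transcripts than in the rest. Of 15 other genes of the renin-angiotensin system, 5 passed the filter and 6 were at 0 in every library. Lnpep, the angiotensin IV binding aminopeptidase, was at 312 cpm in CD and 345 cpm in WD CD45hi cells on average, and Atp6ap2, the prorenin receptor, at 59.4 and 84.7 cpm. The group means of Agt, the angiotensin precursor, were 0 to 1.33 cpm. Anpep, an angiotensin-trimming aminopeptidase, was called higher in CD45hi than CD45lo cells in WD mice (log2 fold change 4.35, adjusted p = 0.0064, edgeR), and no other gene of the list was called on either diet.

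Ear2 encodes a small ribonuclease of the eosinophil-associated family and lies at chr14:44102654-44103534 on the plus strand. CD CD45hi replicates 1 to 4 had 34.7, 46.6, 39.3 and 46.5 cpm, and WD CD45hi replicates 1 to 3 had 107, 114 and 43.8 cpm. WD replicates 1 and 2 were well above every CD library, and WD replicate 3 was within the CD range. In CD45lo cells it was at 1.06, 0.675, 0.246 and 0.567 cpm on CD and at 0.918, 2.45, 0 and 0.227 cpm on WD. The WD over CD log2 fold change in CD45hi cells was 1.07 (SE 0.72, 95% interval -0.45 to 2.60, adjusted p = 0.466, edgeR), and the newer quasi-likelihood form of edgeR 4 called it (log2 fold change 1.08, adjusted p = 0.0443). Eosinophil markers, of which 4 of 5 were in the tables, summed to 0.772 to 11.5 cpm in CD CD45hi and 4.61 to 23.5 cpm in WD CD45hi libraries. Epx was at 0 in 6 of the 7 CD45hi libraries and at 1.53 cpm in WD replicate 3, where Prg2 was at 22.0 cpm. Ccr3 was at 15.5 cpm in WD replicate 2, the library with the highest Ear2, at 10.7 and 8.53 cpm in CD replicates 1 and 2, and at 0 to 4.04 cpm in the other CD45hi libraries. The part of eosinophils in the Ear2 level was not tested.

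Ear2 has a near copy, Ear1, and the split of counts between the 2 genes is an estimate of RSEM. Their longest GENCODE M21 transcripts were 97.5% identical over 711 aligned bases. Of the 75-base runs of Ear2, 23.4% also occurred in other genes, and Ear10 held 119 of these 151 shared runs. Ear10 reached no more than 0.0655 cpm in any library, and the share held by Ear1 alone is not given here. The promoter windows of both genes are shown because they differ so little, with 246 of 248 aligned bases identical. Capitals mark the bases of each window that have no identical partner in the other, including those at the ends. The windows are at chr14:44102404-44102653 on the plus strand and at chr14:43819640-43819889 on the minus strand.
Ear2: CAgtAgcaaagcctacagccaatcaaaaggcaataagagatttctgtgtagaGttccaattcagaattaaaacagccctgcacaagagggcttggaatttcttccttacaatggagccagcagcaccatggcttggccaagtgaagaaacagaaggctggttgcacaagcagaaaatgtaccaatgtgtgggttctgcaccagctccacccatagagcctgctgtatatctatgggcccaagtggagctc
Ear1: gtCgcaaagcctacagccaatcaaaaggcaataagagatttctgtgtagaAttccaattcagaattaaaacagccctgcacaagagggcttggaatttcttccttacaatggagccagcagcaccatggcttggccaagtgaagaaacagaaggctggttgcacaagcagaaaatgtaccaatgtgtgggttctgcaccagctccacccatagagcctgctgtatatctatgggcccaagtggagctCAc

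RSEM gave Ear1 47.8% of the Ear1 and Ear2 counts in WD CD45hi replicate 3, 19.3% in CD replicate 2, 1.74% in CD replicate 3 and less than 1% in the other 4 CD45hi libraries. The library in which Ear2 looked low among the WD mice was thus the one in which RSEM gave Ear1 nearly as many reads. In WD CD45hi replicates 1 and 2 RSEM gave Ear1 0 counts, beside 1133 and 1695 for Ear2. Whether the Ear1 counts of WD replicate 3 came from Ear1 RNA was not tested. With the counts of both genes summed, CD CD45hi replicates 1 to 4 had 34.7, 57.8, 40.0 and 46.6 cpm and WD CD45hi replicates 1 to 3 had 107, 114 and 84.0 cpm. The summed level did not overlap between the diets, where 2.58% of all genes tested lay higher in this way. Its log2 fold change of 1.18 was not called (SE 0.74, adjusted p = 0.428, edgeR), in an analysis added after the data had been seen. Of 19 other Ear and RNase A genes 6 passed the filter. Rnase4 was at 275 and 215 cpm and Ang at 53.6 and 48.9 cpm in CD and WD CD45hi cells on average, and neither was called in any comparison. Rnase6 was called higher in CD45hi cells of WD mice (38.0 against 7.70 cpm on average, adjusted p = 0.029, edgeR).

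**Figure D2:**
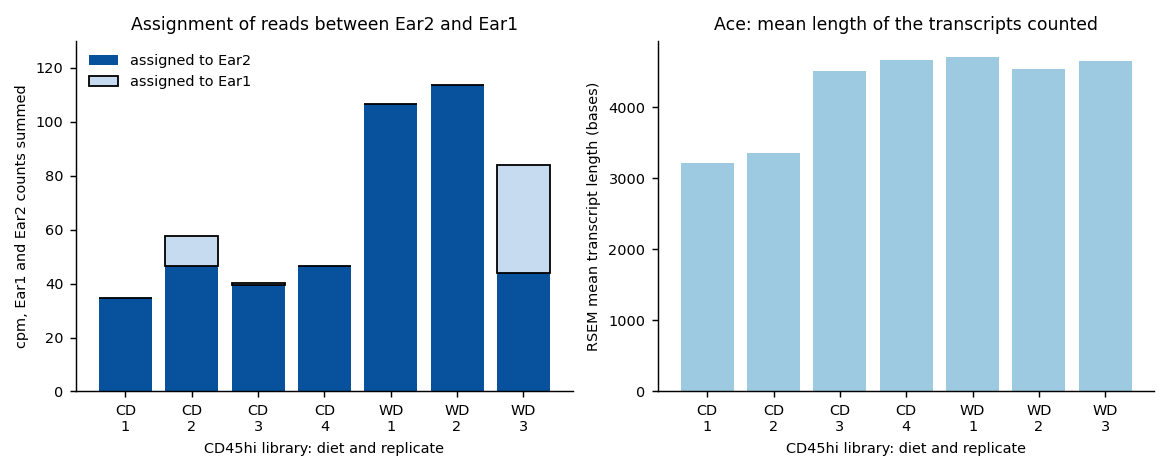
Left, cpm of Ear1 and Ear2 summed in each CD45hi library, divided by the share of counts RSEM gave to each gene, and right, the mean transcript length in bases that RSEM gave Ace. In WD replicate 3 Ear1 holds 47.8% of the bar, and Ace is shorter in CD replicates 1 and 2 (3216 and 3350 bases) than in the others.

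The question of whether the WD changed these genes was put to CD45hi and CD45lo cells separately. In CD45hi cells the log2 fold change was above 0 for 8 of 8 genes, from 0.13 for Nr4a1 to 1.11 for Ace, with a median of 0.83, while 48.5% of all genes tested were above 0 and their median was -0.02. None of the 8 was called by edgeR, with 0 at an unadjusted p under 0.05, beside 0.254% of all genes called and 2628 of 14967 at an unadjusted p under 0.05. DESeq2 and limma-voom also called 0 of the 8, and edgeR 4 called 1, Ear2. The genes share libraries and were chosen on them, so that the shared sign is a description.

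In CD45lo cells 4 of the 8 log2 fold changes were above 0 and 4 below, with a median of -0.15. None was called by edgeR (0% of all genes were), with 0 of the 8 at an unadjusted p under 0.05, and the adjusted p was 1 for each. The interval reached from -0.56 to 2.05 for Ace, from -2.32 to 0.50 for Spn and from -8.84 to 0.71 for Cd300e, whose WD libraries held no count. The 7 genes other than Nr4a1 were at 0 to 6.07 cpm in CD45lo cells, and the SD of log2 cpm between CD45lo libraries of a diet reached 2.24, for Klra2 on WD.

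The interaction, the difference between the CD45hi and CD45lo diet effects, was above 0 for 8 of 8 genes, beside 48.3% of all genes tested. The genes were chosen on the CD45hi against CD45lo differences that form the interaction, so the shared sign is a description. EdgeR called the interaction for none of the 8 (0.00668% of all genes), with 0 at an unadjusted p under 0.05. The interaction was closest to a call for Spn, at 1.86 on the log2 scale (SE 0.94, 95% interval -0.13 to 3.85, adjusted p = 0.531). The diet effect was therefore not shown to differ between CD45hi and CD45lo cells for any of the 8.

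**Figure D3:**
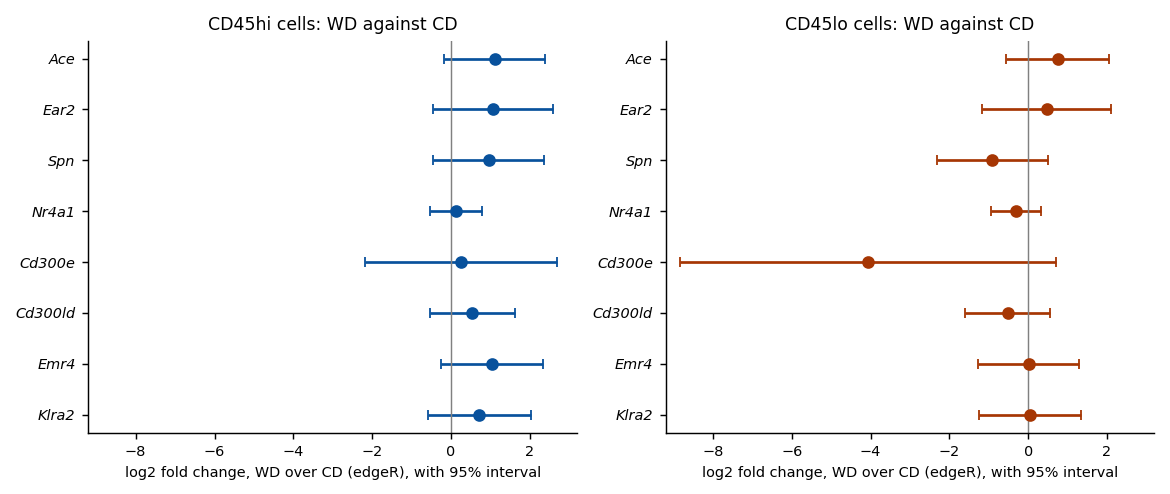
log2 fold change of WD over CD for the 8 genes (points) with its 95% interval (bars), from the edgeR fit of 15 libraries, in CD45hi cells (left) and CD45lo cells (right). All 8 points lie above 0 in CD45hi cells and all intervals include 0 in both cell groups, the widest being that of Cd300e in CD45lo cells, from -8.84 to 0.71.

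Much of the spread in CD45hi cells lay between libraries of the same diet. Of the 8 genes, 3 were highest in WD replicate 1 (Ace, Cd300ld and Emr4), 3 in WD replicate 2 (Ear2, Spn and Klra2) and 2 in CD replicate 4 (Nr4a1 and Cd300e). CD replicate 3 held the lowest value of 4 genes (Spn, Nr4a1, Cd300e and Klra2). WD replicate 3 held neither a highest nor a lowest value, and its mean over the 8 genes of log2 cpm centred on each gene was -0.06, against 0.69 and 0.83 in WD replicates 1 and 2 and -0.998 to 0.14 in the CD libraries. The summed level of the 8 genes was 472 to 801 cpm on CD and 696 to 1219.5 cpm on WD, so that WD replicate 3 fell inside the CD range.

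**Figure D4:**
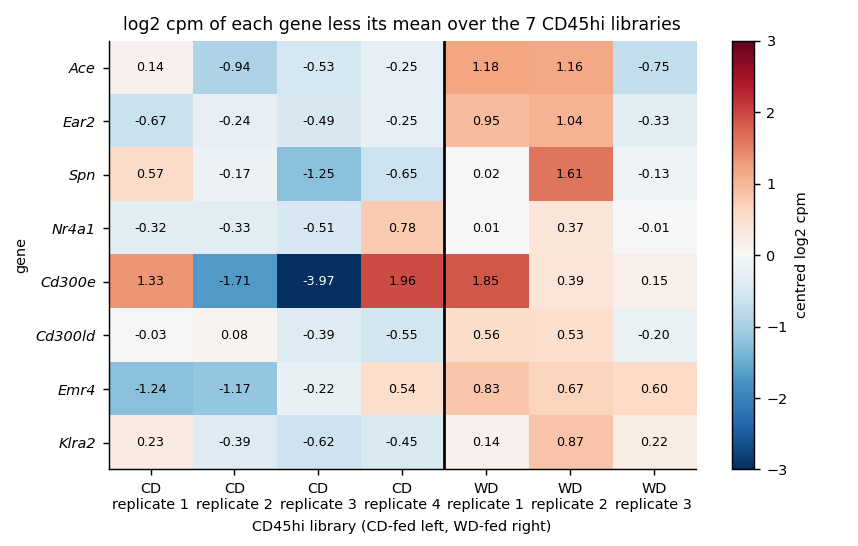
Each cell gives the log2 cpm of a gene (vertical axis) in a CD45hi library (horizontal axis, CD left and WD right of the line) less that gene's mean over the 7 libraries, with red above and blue below. WD replicates 1 and 2 are above 0 for all 8 genes, and Cd300e spans the widest range, from -3.97 in CD replicate 3 to 1.96 in CD replicate 4.

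Within CD CD45hi cells the SD of log2 cpm ran from 0.21 for Ear2 to 2.76 for Cd300e, with a median of 0.52 over the 8 genes beside 0.89 over all genes tested. Within WD CD45hi cells it ran from 0.12 for Emr4 to 1.11 for Ace, with a median of 0.60 beside 0.91. In CD45lo cells the medians were 0.89 on CD and 1.19 on WD, beside 0.35 and 0.40 over all genes. The 8 genes had been chosen on their CD45hi and CD45lo levels, and all genes were not matched to them for level. Nothing is therefore read from these medians as a trait of the 8 genes. The median of the 8 genes was below that of all genes in CD45hi cells and above it in CD45lo cells. Single genes went the other way, namely Cd300e in CD CD45hi cells, Ace, Spn and Cd300e in WD CD45hi cells, and Nr4a1 and Cd300e, the latter at 0 throughout, in WD CD45lo cells.

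Without CD CD45hi replicate 4 and WD CD45hi replicate 1, a choice made after the data had been seen, all 8 log2 fold changes of WD over CD in CD45hi cells stayed above 0 and none was called by edgeR. They were 0.87 for Ace, 0.97 for Ear2, 1.09 for Spn, 0.57 for Nr4a1, 0.33 for Cd300e, 0.31 for Cd300ld, 1.44 for Emr4 and 0.79 for Klra2, with the lowest adjusted p, 0.268, for Emr4. The count of genes called over the whole table went from 38 to 290 in that setting.

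Compared per length, as TPM, the share of all transcripts once counts are divided by length, over the 7 CD45hi libraries, the order of mean levels was Ear2 (147 ± 74.4, SD, n = 7), Nr4a1 (105 ± 30.8), Klra2 (93.5 ± 32.2), Cd300ld (63.5 ± 18.2), Emr4 (40.6 ± 18.9), Spn (29.3 ± 20.5), Ace (27.5 ± 15.2) and Cd300e (21.4 ± 17.7). The libraries of each adjacent pair of genes overlapped. The means of adjacent genes differed by less than the larger of their SDs, except those of Cd300ld and Emr4, which differed by more than either SD. The TPM of Ear2 rests on an unsure split with Ear1 and on a short transcript. From 67.0% (for Cd300e) to 95.3% (for Ear2) of the genes tested had a lower mean TPM.

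**Figure D5:**
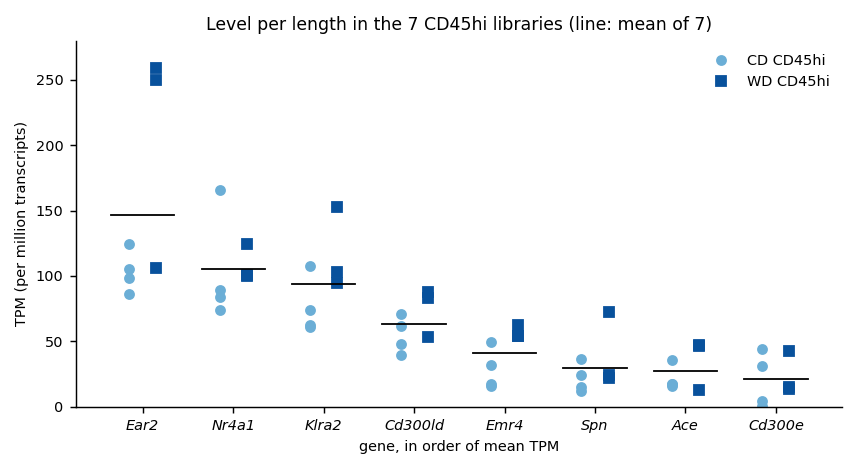
TPM of the 8 genes in each CD45hi library (circles CD, squares WD), in order of the mean of 7 libraries, which the line marks. Means fall from 147 TPM for Ear2 to 21.4 TPM for Cd300e, and neighbouring genes overlap.

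The genes whose centred log2 cpm over the 7 CD45hi libraries came closest to the mean profile of the 8 were Tbc1d17, Umps, Fance, Hint1 and Eif1ax, at root-mean-square differences of 0.24 to 0.29 on the log2 scale among 4645 genes compared. Over all 15 libraries, among 8388 genes, the nearest to single genes were Itgal for Ace (0.79), Slamf7 for Ear2 (0.83), Cd44 for Spn (0.75) and Rab11fip1 for Nr4a1 (0.42). They were Stfa2l1 for Cd300e (1.23), H2-Eb1 for Cd300ld (0.63), Itga4 for Emr4 (0.78) and Ccnd2 for Klra2 (0.71). Next in order came L1cam and Mfsd6 for Ace, Itgal and Bhlhe40 for Ear2, Runx3 and Klra2 for Spn, and Gp49a and Oas2 for Nr4a1. They were Treml4 and Il1b for Cd300e, Cd97 and Ccnd2 for Cd300ld, Mnda and Cxcr4 for Emr4, and Cytip and Spn for Klra2. Spn and Klra2 were thus the single pair of the 8 genes that stood among each other's 3 nearest (0.79), and these distances rest mostly on the CD45hi to CD45lo difference that all these genes share.

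Of 17 other genes known from Ly6C-low monocytes, edgeR called 6 higher and 1 lower in CD45hi than CD45lo cells in CD mice and 8 higher and 1 lower in WD mice. Over all genes tested, 3.39% were called higher in CD mice and 4.01% in WD mice. The 4 of the 17 with the highest level were Csf1r, Cx3cr1, Notch2 and Klf2, which microglia also express. All genes of the list called higher were outside these 4. Cx3cr1, the fractalkine receptor, fell by 0.95 on the log2 scale in CD mice (adjusted p = 0.0078) and by 0.99 in WD mice (adjusted p = 0.0067). Csf1r (-0.55 and -0.49), Notch2 (0.43 and 0.63) and Klf2 (-0.04 and -0.15) were not called. In WD over CD CD45hi cells 12 of the 17 were above 0, with a median of 0.45, edgeR called 0, and 4 were at an unadjusted p under 0.05.

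Those 4 were the same genes whose WD CD45hi libraries all lay above the CD ones, and they are named with their values in view. Over all 14967 genes tested, 2.58% lay above in this way and 2628 were at an unadjusted p under 0.05. Treml4, a receptor of Ly6C-low monocytes, was at 15.6 to 24.4 cpm on CD and 55.8 to 65.2 cpm on WD (log2 fold change 1.57, adjusted p = 0.239, edgeR). The apoptosis inhibitor Bcl2 was at 15.5 to 37.9 cpm and 39.9 to 95.1 cpm (1.36, adjusted p = 0.151). Ceacam1, an adhesion molecule, was at 79.7 to 189 cpm and 202 to 240 cpm (0.69, adjusted p = 0.192), and the enolase gene Eno3 was at 6.76 to 19.7 cpm and 25.7 to 65.9 cpm (1.64, adjusted p = 0.104). In CD45lo cells the mean on CD and WD was 0.379 and 0.249 cpm for Treml4 and 18.3 and 14.4 cpm for Bcl2. It was 68.2 and 67.8 cpm for Ceacam1 and 17.7 and 21.0 cpm for Eno3. For CD45hi over CD45lo cells edgeR called Treml4 higher on both diets, Bcl2 and Ceacam1 in WD mice only, and Eno3 on neither diet.

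Of 10 classical monocyte genes, edgeR called 7 higher and 0 lower in CD45hi than CD45lo cells in CD mice and 5 higher and 0 lower in WD mice. The share of all genes tested that was called higher was 3.39% in CD mice and 4.01% in WD mice. Ccr2, the chemokine receptor of classical monocytes, was at 373 and 271 cpm on average in CD and WD CD45hi cells, F13a1 at 257 and 267, Fn1 at 182 and 107 and Mmp8, also a neutrophil collagenase, at 215 and 75.4. In WD over CD CD45hi cells 3 of the 10 log2 fold changes were above 0, the median was -0.55 and edgeR called 0. Mmp8 was at 136 to 299 cpm on CD and 42.8 to 117 cpm on WD without overlap (log2 fold change -1.51, adjusted p = 0.18, edgeR). Plac8, named with its values in view, lay the other way without overlap, at 5.89 to 24.2 cpm on CD and 27.2 to 49.9 cpm on WD (log2 fold change 1.32, adjusted p = 0.538, edgeR). The median of the 8 patrolling genes in the same contrast was 0.83, and the difference between the lists was not tested.

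Of 9 partners of CD43, 8 were tested, and edgeR called 3 higher and 1 lower in CD45hi cells in CD mice and 3 higher and 0 lower in WD mice. Among all genes tested 3.39% were called higher in CD mice and 4.01% in WD mice. The 4 partners with the highest level were Msn (1503 and 1595 cpm in CD and WD CD45hi cells), Selplg (574 and 540), Gcnt1 (235 and 271) and Rdx (114 and 191). Gcnt1, which encodes a glycosyltransferase that extends the O-glycans of CD43, fell by 0.98 on the log2 scale in CD45hi cells of CD mice (adjusted p = 0.037), and its value of -0.69 in WD mice was not called. In WD over CD CD45hi cells edgeR called 0, with 2 at an unadjusted p under 0.05.

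Markers of other cells in the CD45hi gate were compared between the diets as well, and edgeR called none of any cell type. All 9 neutrophil markers had log2 fold changes below 0 in WD over CD CD45hi cells, with 0 called by edgeR, and they summed to 1033 to 3490 cpm on CD and 667 to 1915 cpm on WD. Ly6g was at 0 to 7.34 cpm. The 6 border-associated macrophage markers summed to 1867 to 1983 cpm on CD and 681 to 2499 cpm on WD, lowest in WD replicate 1, which held the highest Ace, Cd300ld and Emr4. Endothelial markers summed to 23.2 to 81.9 cpm on CD and 56.2 to 111 cpm on WD, and choroid plexus markers, nearly all Ttr, to 16.9 to 447 cpm and 93.8 to 1033 cpm. The part of these cells in the levels of the 8 genes was not tested.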

How the data were processed

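RNA of CD11b+CD45hi and CD11b+CD45lo brain cells was sequenced in 15 libraries (TruSeq poly(A) kit, 75-base paired reads). The authors trimmed reads by quality and counted them per gene with RSEM 1.2.12 and Bowtie2 on mm10, RSEM 1.2.12 and bcl2fastq 2.18.0.12 also standing in the submitters' processing notes. The annotation release and the sequencer of each library are not given in the sources used here. The deposited values are expected counts, TPM and FPKM, with 38924 genes each, and a mean transcript length per gene. RSEM divides reads shared by genes, so an expected count of a near copy is an estimate.

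After rounding the expected counts, 14967 genes that reached 1 cpm in 2 or more libraries were scaled by TMM and fitted in 1 model of 4 groups with edgeR 4.0.16 in R 4.3.3 (quasi-likelihood, earlier form), with a 1.5-fold limit for CD45 level and none for diet or the interaction. P-values were adjusted by Benjamini-Hochberg over all genes kept, called under 0.05. Intervals are at 95%. DESeq2 1.42.0 and limma-voom (limma 3.58.1) were alternatives, and the fit was checked on simulated data. Groups came from the submitters' labels. The study speaks of read counts for animals, and the names of the deposited data share a number between CD45hi and CD45lo libraries, which may mark an animal. The labels do not say so, and p-values measure the spread between these libraries. No 2 libraries of a group were identical. Intervals of fold changes include the spread between libraries, and the floor of 3 counts covers counting error only.

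The 8 genes and all lists were chosen with earlier results of these data known. Named were the 8 genes, at most the 4 genes of each list with the highest mean cpm, list genes called for diet, the 5 genes nearest the mean profile (at least 10 cpm in CD45hi cells) and the 3 nearest each gene. Treml4, Bcl2, Ceacam1, Eno3, Plac8, Klra9, Klra3, Fosl2 and Ier3 were named after their values were seen. Positions were taken from GENCODE M21, and promoter sequences from RefSeq (GRCm38.p6), where all 8 matched.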

Additional observations from a re-analysis of the deposited data

Results flagged for a closer look

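In groups of 4 libraries, a library was singled out where its gap to the nearest other exceeded Dixon's 95% limit. For independent, normally distributed values chance does so in about 1 of 20 groups. Some groups here held values at or near 0, and the genes share libraries. That rate is therefore no measure for the counts below, and no excess is read from them. Among the 8 genes this held in 2 of 23 groups tested. Nr4a1 was at 302 cpm in CD CD45hi replicate 4, next to 140.5 cpm in the nearest library, and Cd300e was at 0.492 cpm (8 counts) in CD CD45lo replicate 3, next to 0.0519 cpm. CD CD45hi replicate 4 also stood apart on the second principal component.

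Among the list genes named by level this held 16 times in 101 groups. In CD CD45hi cells replicate 2 was high for Ear1 (11.2 cpm), Rnase6 (26.2 cpm), Anpep (15.6 cpm) and Agt (1.32 cpm), replicate 3 for Klra13-ps (10.7 cpm), Klra4 (7.39 cpm) and Klra8 (3.96 cpm), and replicate 4 for Gcnt1 (271 cpm). In CD CD45lo cells Notch2 was at 455 cpm in replicate 1, Csf1r at 4775 cpm, Nr4a3 at 0.726 cpm and Agt at 4.15 cpm in replicate 2, and Fn1 at 40.1 cpm in replicate 4. In WD CD45lo cells replicate 2 was high for Ear1 (1.11 cpm) and Cd300lb (5.64 cpm) and low for Selplg (881 cpm).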

How the results depend on the processing

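The count of genes called for WD over CD in CD45hi cells was 38 and depended most on the setting. It was 66 with 1 cpm required in 3 libraries, 1003 with DESeq2, 252 with edgeR 4, 0 with only the CD45hi libraries fitted, and 290 without CD CD45hi replicate 4 and WD CD45hi replicate 1. It ran from 1 (without WD CD45lo replicate 2) to 286 (without WD CD45hi replicate 2) when 1 library was left out, and each of the 15 omissions moved it by over 1.5 times. Of the 8 genes 0 were called in each of these settings except edgeR 4, which called 1, Ear2. In CD45lo cells DESeq2 called 4 genes, and 0 were called in the other settings, each omission of 1 library included (0 to 0).

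The interaction was called for 1 gene, for 188 with DESeq2, 0 with limma-voom, 0 with edgeR 4, 3 without both libraries that stood apart, and 0 to 6 with 1 library left out (0 without CD CD45lo replicate 1 or 2, 2 without CD CD45hi replicate 2, and 4, 6 and 3 without WD CD45hi replicate 1, 2 or 3). The count for CD45hi against CD45lo cells was 595 in CD and 775 in WD mice, 1202 and 1365 for any change in place of 1.5-fold, and 412 to 705 and 513 to 920 with 1 library left out, the lowest WD counts coming without WD CD45lo replicate 1 (515) or 3 (513).

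Replicate numbers in the titles are shared by the groups, and those in the file names differ for WD CD45lo cells. Deviations of same-numbered libraries correlated at no more than 0.0695 over genes. Such libraries hold different sorted cells, so a low correlation cannot exclude that they share an animal. The numbers were not taken as pairing in the main fit and served only as blocks in alternative fits. With a replicate block by titles the WD count for CD45hi against CD45lo cells was 398, by file names 353, the interaction count 0 under both, and with a block shared by the diets 2 genes were called for diet in CD45hi cells. No block called any of the 8 genes for diet or the interaction.

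Signs of small, uncalled differences turned. In CD45lo cells the log2 fold change of Ear2 was -0.77 with limma-voom, that of Emr4 -0.0155 with no filter on low counts, -0.0870 with limma-voom and -0.10 with edgeR 4, and that of Klra2 -0.79 with limma-voom and -0.16 with a block shared by the diets. The interaction of Ace was -0.23 with limma-voom and -0.26 with a block by titles. With 1 library left out the ranges that crossed 0 were -0.00953 to 0.52 for Nr4a1 and -0.49 to 1.07 for Cd300e in CD45hi cells, and -0.75 to 0.90 for Ear2, -0.35 to 0.49 for Emr4 and -0.35 to 0.45 for Klra2 in CD45lo cells. The causes were not tested. FPKM or TPM over the genes kept gave the same order of the 8 genes. In CD45hi cells, with 3 WD and 4 CD libraries, intervals for diet reached beyond 1 on the log2 scale for 7 of the 8 genes. The fit took the spread of each gene from all 15 libraries, so that between CD45lo libraries also entered these intervals. For Klra2 the SD of log2 cpm was 0.37 on CD and 0.40 on WD in CD45hi cells. It was 0.73 on CD and 2.24 on WD in CD45lo cells. The part of the CD45lo spread in the width of the CD45hi intervals was not tested.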
